A study of Mus musculus with 8 samples.

Results

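The comparison described here sets small RNA from purified liver mitochondria against small RNA from whole liver, both from calorie-restricted mice. It comprises 4 of the 8 libraries of the series, chosen by their labels: 3 mitochondrial libraries (CR mitochondria, replicates 1 to 3) and 1 whole-liver library (the CR pool). All groups were male wild-type C57BL/6J mice that were 8 weeks old at the start, lived in single housing and were assigned to a diet at random. Caloric restriction (CR) lasted 12 weeks, with 20% less food in week 1 and 40% less in the following 11 weeks, while the AL group ate ad libitum for the same 12 weeks. The other 4 libraries, 3 from AL mitochondria and 1 AL whole-liver pool, serve only as a second instance of the same comparison and as a source of the spread between libraries. Mitochondrial RNA was extracted with Trizol after differential centrifugation to mitoplasts, which are mitochondria without their outer membrane. Whole-liver RNA was extracted directly, and 3 RNA samples were combined in equal amounts into 1 library, so animal-to-animal variation in whole liver was not measured. Whether each mitochondrial replicate is a mouse of its own is not stated, and p-values therefore cover the spread among these libraries alone, which may be technical.

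MicroRNAs (miRNAs) are short RNAs cut from hairpin precursors by Drosha in the nucleus and Dicer in the cytoplasm. Each hairpin can give a 5p and a 3p product, or arm, and the arm that is loaded into an Argonaute protein guides it to messenger RNAs that pair with its seed, bases 2 to 8. miRNA genes lie in the nuclear genome, so miRNAs found with mitochondria are thought to be imported or attached, and miRNA bound to mitochondria is a small part of that in a liver cell. Liver is known for a very high level of miR-122, a hepatocyte miRNA.

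The sequences that the results turn on are shown from 5′ to 3′ with the seed in capitals, taken from RefSeq (GRCm38.p6). In the let-7 group, which shares 1 seed, 6 of 9 members were lower in mitochondria, and the members differ only outside the seed.

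let-7g-5p: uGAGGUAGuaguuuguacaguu
let-7a-5p: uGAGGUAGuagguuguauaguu
let-7d-5p: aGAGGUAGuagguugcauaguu
let-7c-5p: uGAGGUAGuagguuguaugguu
let-7b-5p: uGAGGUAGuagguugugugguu

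The opposite arm of the let-7g hairpin, which was higher in mitochondria, has another seed.

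let-7g-3p: aCUGUACAggccacugccuugc

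The miR-29 group also shares 1 seed, and 1 of its 3 members was higher while the other two did not pass.

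miR-29a-3p: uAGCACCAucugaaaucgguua
miR-29b-3p: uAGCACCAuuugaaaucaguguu
miR-29c-3p: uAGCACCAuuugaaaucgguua

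Of the miRNAs that were higher in mitochondria, the 3 with the smallest p are shown first, followed by miR-6481, whose mature sequence is also found within a mitochondrial transfer RNA.

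miR-193a-3p: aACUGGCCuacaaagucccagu
miR-146a-5p: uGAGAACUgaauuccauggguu
miR-192-3p: cUGCCAAUuccauaggucacag
miR-6481: cACUGAAAaugcuuagaug

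Of those that were lower, 2 from hairpins whose arm ratio changed and 2 that share a seed are shown.

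miR-872-5p: aAGGUUACuuguuaguucagg
miR-361-3p: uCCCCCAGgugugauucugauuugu
miR-99a-5p: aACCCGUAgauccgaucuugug
miR-100-5p: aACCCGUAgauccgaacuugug

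The CR pool held 3242002 miRNA reads, and CR mitochondrial replicates 1, 2 and 3 held 1200984, 1577691 and 1070762. Levels are reads per 1000000 miRNA reads (RPM), so a level is a share of the library and not an amount per cell or per mitochondrion. miR-122, counting its 2 arms as 1, took 26.3% of the reads in the pool (95% Clopper-Pearson interval 26.3% to 26.4%) and 53.3%, 25.2% and 58.1% in the mitochondrial replicates, a mean of 45.5% ± 17.8 (SD, n = 3). Replicate 2 thus stood apart from the other two mitochondrial libraries and lay near the pool. It also held 63.4 RPM of miR-375-3p and 32.96 RPM of miR-217-5p, miRNAs known from pancreas, against 1.67 and 3.74 RPM of miR-375-3p and 0.833 and 0.934 RPM of miR-217-5p in replicates 1 and 3. What pancreatic RNA contributes to the other values of replicate 2 was not tested. The 4 CR libraries listed 743 miRNA names. Of these, 278 had at least 5 RPM as the mean of the 2 fraction levels and were tested.

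In CR mitochondria, 21 miRNAs were higher and 50 were lower than in the CR pool, which is 25.5% of the 278 tested (7.55% higher and 18% lower). The higher ones included miR-146a-5p, miR-378a-3p, miR-193a-3p and the lesser arms of the let-7g, miR-192 and miR-29a hairpins. The lower ones included 6 of the 9 let-7 members that share a seed, miR-99a-5p, miR-100-5p, both miR-125 members and several miRNAs that almost vanished, such as miR-872-5p, miR-361-3p and miR-484. The 21 together took 0.622% of the reads in the pool and 1.96%, 4.13% and 3.37% in the mitochondrial replicates. The 50 took 10.5% in the pool and 2.82%, 2.90% and 2.05% in mitochondria.

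These calls come from limma-trend on log2(RPM + 1) with Benjamini-Hochberg adjustment over the 278 miRNAs and a threshold of 0.05, in which the single pool is assumed to vary like the mitochondrial libraries. Fold changes are on this scale and understate the change of rare miRNAs. For every one of the 71, all 3 mitochondrial libraries lay on the called side of the pool. Over all 278, all 3 libraries lay above the pool for 25.5% and below it for 50.7%. Over the 278 miRNAs the median log2 fold change was -0.45, and it was -0.01 when miR-122 was left out before scaling, which gave 30 higher and 28 lower. TMM scaling gave 28 higher and 39 lower, and DESeq2 size factors 29 and 34. No called miRNA changed its direction under these scalings or under upper quartile scaling. Without replicate 2 there were 79 calls, and 68 of the 71 were among them.

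**Figure D1:**
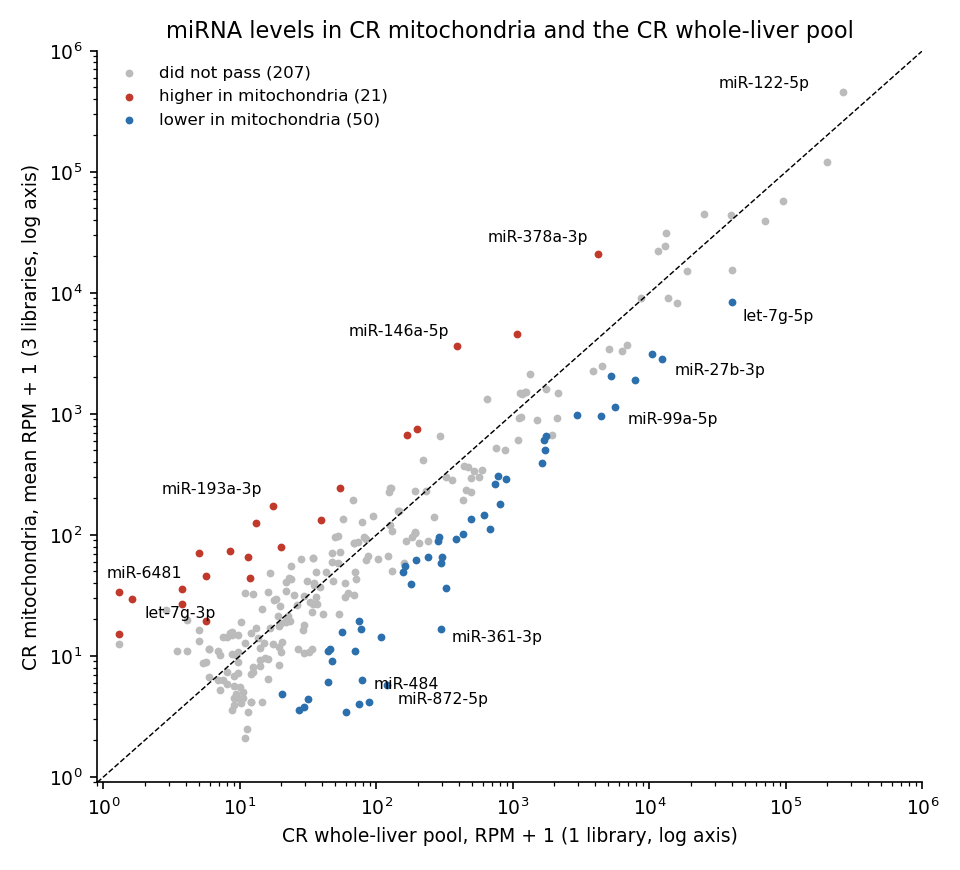
Levels of the 278 tested miRNAs in the CR whole-liver pool (x axis, 1 library) and in CR mitochondria (y axis, mean of 3 libraries), both as RPM + 1 on log axes. Points on the dashed line are equal in both fractions; the 21 higher and 50 lower miRNAs are coloured, and the most abundant miRNA, miR-122-5p, is grey because it did not pass.

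Among the miRNAs that were higher, miR-146a-5p, known as a brake on innate immune signalling through Toll-like receptors, had the largest fold change of those above 1000 RPM. It stood at 390 RPM in the pool and at 2763, 3411 and 4626 RPM in the mitochondrial replicates. Every mitochondrial library was well above the pool, and the log2 fold change was 3.17 (SE 0.47, adjusted p = 0.000765 by limma-trend). Its gene, Mir146, lies on chromosome 11 (hairpin chr11:43374397-43374461, minus strand, GRCm38). The related miR-146b-5p, which has the same seed, was at 123 RPM in the pool and at 135, 272 and 265 RPM in mitochondria and did not pass (log2 fold change 0.79, SE 0.52, adjusted p = 0.294 by limma-trend).

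miR-378a-3p is made from a hairpin within Ppargc1b, a regulator of mitochondrial energy metabolism. It was the most abundant miRNA to pass in either direction in mitochondria, with 4220 RPM in the pool and 11562, 29037 and 21574 RPM in the replicates. All 3 libraries exceeded the pool, most of all replicate 2, and the log2 fold change was 2.20 (SE 0.63, adjusted p = 0.0222 by limma-trend). miR-378c rose with it (log2 fold change 2.02, SE 0.58), from 1063 RPM to 2624, 6183 and 4977 RPM. miR-378b did so as well (log2 fold change 2.47, SE 0.51), from 10.5 RPM to 45.8, 67.2 and 80.3 RPM. These 3 names are nearly identical in sequence, so the way reads were divided among them is uncertain and they do not count as separate instances.

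The 10 largest increases were led by miRNAs that were scarce in the pool. miR-6481 had 1 read in the pool (0.308 RPM) and 31.6, 22.8 and 43.0 RPM in mitochondria. Its share was 101 times that of the pool over the summed reads, with a counting interval of 17.8 to 4025. The mature sequence shown above also lies within mt-Tf, the mitochondrial transfer RNA for phenylalanine, so reads of the annotated hairpin and of the transfer RNA cannot be told apart. let-7g-3p had 2 reads in the pool (0.617 RPM) and 20.0, 38.03 and 27.1 RPM in mitochondria, a ratio of 47.6 (12.9 to 398). miR-5126 had 1 read in the pool and 21.6, 12.7 and 8.41 RPM in mitochondria, a ratio of 46.3 (7.97 to 1862). Both names were above the pool in each mitochondrial library, but the pool's 1 or 2 reads leave the size of the change poorly known. The unannotated candidate novel_192 was at 4.01 RPM in the pool and at 43.3, 59.6 and 105.5 RPM in mitochondria (log2 fold change 3.72, SE 0.63).

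miR-193a-3p, a miRNA highly expressed in liver that was put among the hepatocyte markers, had the smallest p of all. It was at 16.3 RPM in the pool and at 197, 133 and 186 RPM in mitochondria. The 3 libraries lay close together and far above the pool, with a log2 fold change of 3.30 (SE 0.48, adjusted p = 0.000765 by limma-trend). Its hairpin lies at chr11:79711969-79712034 on the plus strand (GRCm38), outside any gene annotated on the plus strand. miR-192-3p, the lesser arm of a liver and kidney miRNA, rose from 12.0 RPM to 107.4, 165 and 98.1 RPM (log2 fold change 3.22, SE 0.50). miR-29a-5p, miR-500-3p and miR-6240 completed the 10, with log2 fold changes of 3.03, 3.02 and 3.23. They were at 7.40, 4.63 and 2.78 RPM in the pool and between 27.3 and 102.7 RPM in every mitochondrial library.

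The remaining increases were smaller. miR-29c-3p rose from 166 RPM to 828, 553 and 607 RPM (log2 fold change 1.97, SE 0.44). miR-19b-3p, a member of the miR-17-92 cluster, rose from 197 RPM to 744, 799 and 683 RPM (log2 fold change 1.90, SE 0.47). miR-10b-5p, encoded between Hoxd genes, rose from 52.7 RPM to 158, 356 and 214 RPM (log2 fold change 2.10, SE 0.57). The other names that passed were miR-652-3p, miR-497a-5p, miR-130a-5p, miR-881-3p and miR-3470b, with log2 fold changes from 1.70 to 2.55. The mature sequence of miR-3470b also lies within other annotated small RNAs (Gm22642 and Gm25735), and its call was lost without CR mitochondrial replicate 2 (adjusted p = 0.0605 by limma-trend) or 3 (0.0507). Without replicate 1 the calls of miR-652-3p (0.0576), miR-497a-5p (0.0748) and miR-130a-5p (0.0842) were lost. That of miR-130a-5p was also lost without CR mitochondrial replicate 3 (0.0763) and without AL mitochondrial replicates 2 (0.0632) or 3 (0.0754), 7 of 19 alternatives in all with other filters and pseudocounts counted.

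**Figure D2:**
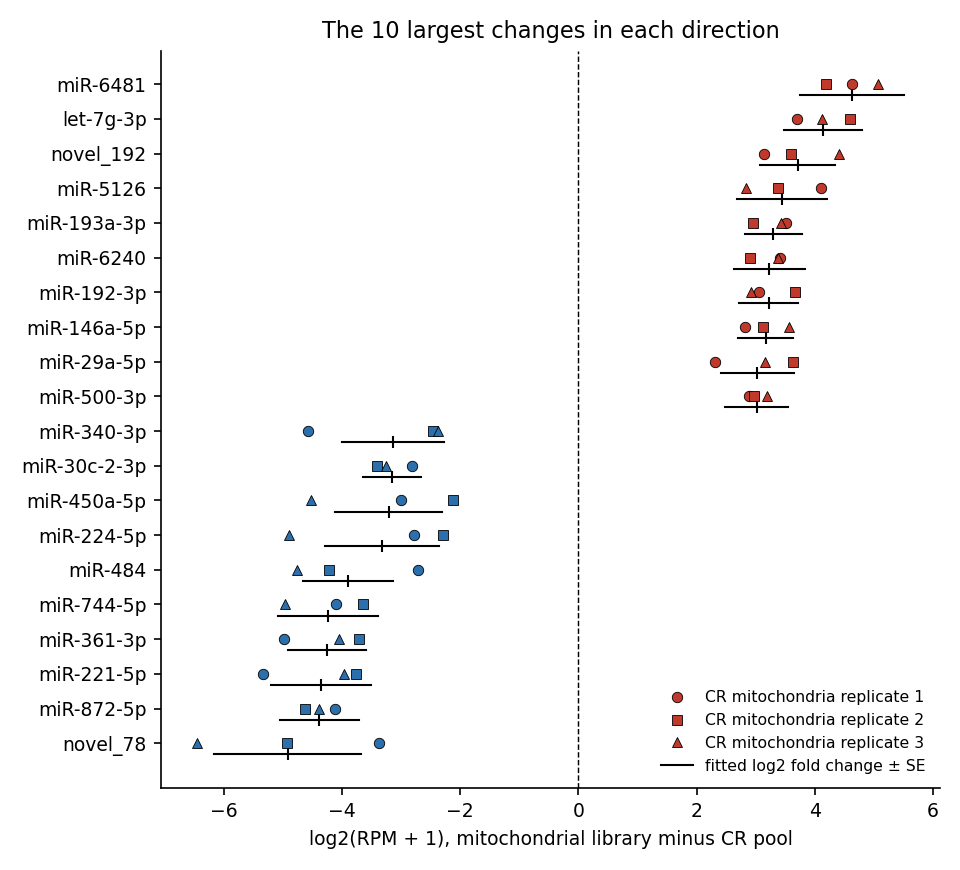
The 10 largest changes in each direction: each symbol is 1 CR mitochondrial library minus the CR pool on the log2(RPM + 1) scale, and the black line under it is the fitted log2 fold change ± SE. All 3 libraries lie on the same side of 0 for each of the 20 miRNAs, and the spread is widest for those near 0 RPM in mitochondria, such as novel_78 (fitted -4.92).

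Among the miRNAs that were lower, several of moderate level in the pool were close to the limit of counting in mitochondria. miR-872-5p, encoded in an intron of Ift74, fell from 118 RPM to 5.83, 3.80 and 4.67 RPM. The 3 mitochondrial libraries were alike, and the log2 fold change was -4.38 (SE 0.66, adjusted p = 0.000765 by limma-trend). miR-361-3p, encoded in an intron of Chm, fell from 296 RPM to 8.33, 21.6 and 16.8 RPM (log2 fold change -4.26, SE 0.66). miR-221-5p fell from 73.1 RPM to 0.833, 4.44 and 3.74 RPM, and miR-744-5p from 59.2 RPM to 2.50, 3.80 and 0.934 RPM. Their log2 fold changes were -4.36 (SE 0.85) and -4.24 (SE 0.85), with all 3 libraries of both far below the pool.

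miR-484, whose precursor is capped at transcription and is processed without Drosha, fell from 76.8 RPM to 10.8, 3.17 and 1.87 RPM (log2 fold change -3.90, SE 0.75). The other members of the list of miRNAs made without Drosha or Dicer did not pass. miR-451a, which Argonaute 2 cuts without Dicer, was at 60.5 RPM in the pool and at 48.3, 19.6 and 28.95 RPM in mitochondria. miR-320-3p was at 72.5 RPM in the pool and at 80.8, 78.0 and 98.1 RPM in mitochondria. The list of 3 thus held 1 lower and 2 that did not pass, where 18% of all tested were lower. Its median log2 fold change was -0.98, against -0.45 over all tested miRNAs.

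The 10 largest decreases also held miR-30c-2-3p, miR-340-3p, miR-224-5p, miR-450a-5p and the unannotated novel_78. miR-30c-2-3p was the best measured of these, at 321 RPM in the pool and at 45.0, 29.2 and 32.7 RPM in mitochondria (log2 fold change -3.16, SE 0.49). miR-224-5p and novel_78 had no read in replicate 3 and were under 8 RPM in the other two. Of the 50 lower names, 1 was under 20 RPM in the pool, compared with 14 of the 21 higher names. With the filter used and 1 RPM added, a name scarce in the pool has little room to be called lower. Nothing is therefore read from this contrast. The filter let a miRNA pass through either fraction: 20 passed only through their mitochondrial level and 27 only through the pool. Such names were chosen by the fraction in which they were high, yet they remain in all counts of calls, lists and shares given here. Among the higher names they include miR-6481, let-7g-3p, miR-5126, miR-6240, miR-500-3p, miR-130a-5p and miR-881-3p. Among the lower names they include miR-872-5p, miR-221-5p, miR-744-5p and miR-224-5p. The calls of such names are given as a description.

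Among the 48 miRNAs with at least 1000 RPM in either fraction, 12 fell and 3 rose (miR-146a-5p, miR-378a-3p and miR-378c), where 18% of all tested were lower and 7.55% higher. This balance moved with the scaling: it was 10 lower and 4 higher under TMM, 8 and 5 under DESeq2 size factors, and 7 and 6 of 47 when miR-122 was left out before scaling. miR-99a-5p fell from 5576 RPM to 904, 1376 and 1112 RPM, a log2 fold change of -2.32 (SE 0.44). miR-27b-3p, known for regulating lipid metabolism genes in liver, fell from 12300.4 RPM to 3278, 3086 and 2191 RPM (log2 fold change -2.13, SE 0.48). miR-30d-5p fell from 10383 RPM to 2637, 3898 and 2740 RPM (log2 fold change -1.77, SE 0.46). miR-7a-5p, which restrains insulin release in the pancreas, fell from 4426 RPM to 1250, 555 and 1061 RPM (log2 fold change -2.29, SE 0.50). miR-148b-3p, miR-340-5p and miR-100-5p also fell, by 2.12, 1.65 and 1.55 on the log2 scale. The calls of miR-340-5p and miR-100-5p were lost without CR mitochondrial replicate 1 (adjusted p = 0.0676 and 0.0840 by limma-trend), CR mitochondrial replicate 3 (0.0969 and 0.0549) or AL mitochondrial replicate 3 (0.0502 for both). Counting other scalings, filters and tools, they were lost in 8 and 7 of 20 alternatives, with adjusted p up to 0.182 and 0.109.

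Apart from let-7g-5p, the 5 most abundant miRNAs of each fraction did not pass, and for 3 of them this rested on replicate 2. miR-122-5p was at 262739 RPM in the pool and at 532327, 251755 and 580803 RPM in mitochondria, so that replicate 2 lay just below the pool and the other two far above it. The log2 fold change was 0.70 (SE 0.67, adjusted p = 0.470 by limma-trend). Without replicate 2 it was 1.08 and passed (adjusted p = 0.0157 by limma-trend). miR-148a-3p, at 199930 RPM in the pool and at 102379, 176362 and 85292 RPM in mitochondria, was below the pool in all 3 libraries, most closely in replicate 2 (log2 fold change -0.79, SE 0.62). miR-21a-5p and miR-192-5p were below the pool in all 3 libraries as well, with log2 fold changes of -0.74 (SE 0.58) and -0.95 (SE 0.59). Without replicate 2, miR-148a-3p and miR-192-5p passed with log2 fold changes of -1.10 and -1.33 (adjusted p = 0.0478 and 0.0129 by limma-trend). miR-101b-3p was above it in all 3, with 0.71 (SE 0.60), and passed with DESeq2 on recovered reads (adjusted p = 0.0492). miR-30a-5p overlapped the pool with -0.01 (SE 0.61).

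The let-7 family, known for restraining growth genes and insulin signalling through Lin28 and its targets, held 15 tested names, of which 6 were lower in mitochondria, 1 was higher and 8 did not pass. The median log2 fold change was -0.85 against -0.45 over all tested miRNAs, of which 18% were lower and 7.55% higher. The summed level was 102762 RPM in the pool and 38492, 36862 and 22928 RPM in mitochondria. By seed, the 9 members of the group shown above had a median of -1.66, with 0 higher.

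let-7g-5p was the most abundant let-7 in the pool and fell most, from 40481 RPM to 9944, 9283 and 5934 RPM. All 3 libraries were far below the pool, and the log2 fold change was -2.31 (SE 0.59, adjusted p = 0.0134 by limma-trend). let-7f-5p, almost as abundant with 40195 RPM in the pool, was at 18546, 18871 and 9221 RPM in mitochondria and did not pass (log2 fold change -1.44, SE 0.63, adjusted p = 0.116 by limma-trend). let-7a-5p fell from 7781 RPM to 2296, 1946 and 1500 RPM (log2 fold change -2.04, SE 0.52). let-7d-5p, let-7e-5p, let-7c-5p and miR-98-5p fell by 1.81, 1.74, 1.37 and 1.66 on the log2 scale. let-7b-5p changed least, from 2125 RPM to 1818, 1166 and 1454 RPM (log2 fold change -0.55, SE 0.45), and let-7i-5p had a log2 fold change of -0.85 (SE 0.45). All 9 members were below the pool in all 3 libraries, as were 50.7% of all tested miRNAs. The members are closely similar in sequence, and how reads shared by several were divided is not stated. The calls of let-7c-5p, let-7d-5p, let-7e-5p and miR-98-5p were lost without CR mitochondrial replicate 3 (adjusted p = 0.0849, 0.0522, 0.0872 and 0.0556 by limma-trend). That of let-7c-5p was also lost without CR mitochondrial replicate 1 (0.0640) or AL mitochondrial replicate 3 (0.0886). Counting other scalings, filters and tools as well, let-7c-5p lost its call in 11 of 20 alternatives, miR-98-5p in 7, let-7e-5p in 5 and let-7d-5p in 3. All 4 calls were lost when miR-122 was left out before scaling (adjusted p = 0.182, 0.145, 0.105 and 0.0796 by limma-trend).

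**Figure D3:**
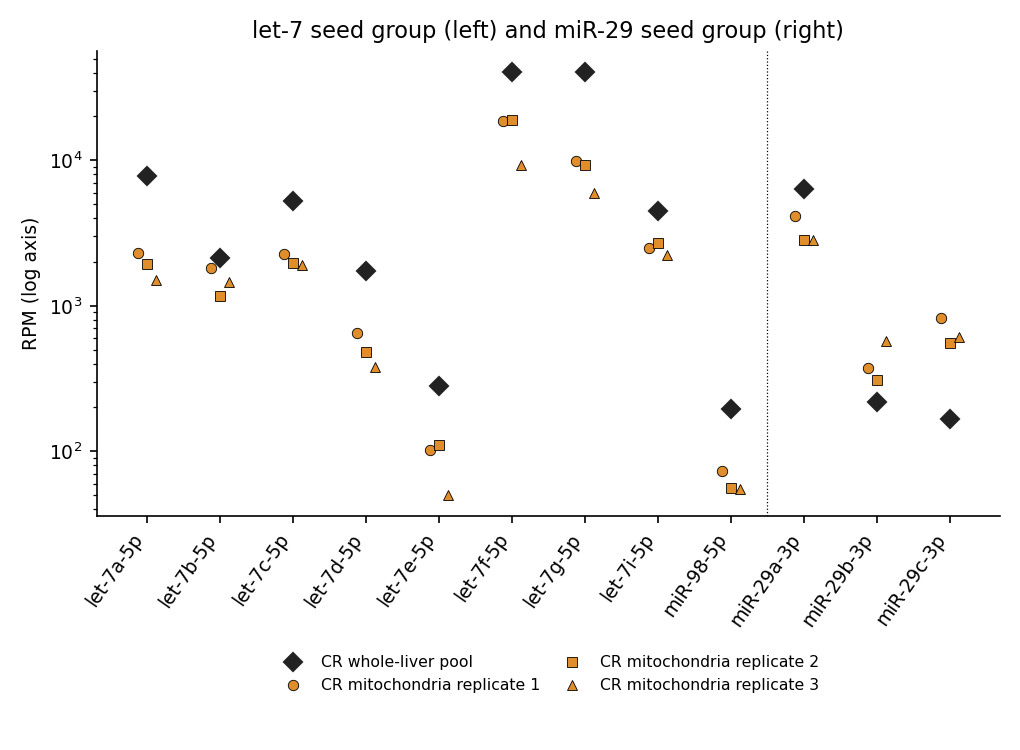
Levels in RPM (log axis) of the 9 let-7 seed members and the 3 miR-29 seed members in the CR pool (diamonds) and the 3 CR mitochondrial libraries (other symbols). The let-7 members all lie below the pool, whereas miR-29c-3p lies above it and miR-29a-3p below it. Of all 278 tested miRNAs, 50.7% lie below the pool in all 3 libraries.

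The miR-29 family, which represses collagen genes and dampens insulin signalling in liver, has 3 members with the seed shown above. miR-29a-3p, the main form in liver, was at 6319 RPM in the pool and at 4142, 2852 and 2842 RPM in mitochondria and did not pass (log2 fold change -0.97, SE 0.48, adjusted p = 0.180 by limma-trend). miR-29b-3p was above the pool in all 3 libraries and did not pass either (0.88, SE 0.47), though it did with DESeq2 on recovered reads (adjusted p = 0.0317). A difference between the members was not tested. miR-29c-3p passed upward, as given above. In the family, 2 of 5 tested names were higher and none was lower, where 7.55% of all tested were higher and 18% lower. The family's median log2 fold change was 0.88, against -0.45 over all tested miRNAs. Its summed level was 6735 RPM in the pool and 5401, 3842 and 4121 RPM in mitochondria, a sum that miR-29a-3p dominates.

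The relatives miR-10, miR-99, miR-100 and miR-125, named for a common ancestry and found in part beside Hox genes and let-7 genes, held 4 lower and 1 higher of 10 tested. miR-99a-5p and miR-100-5p, which share a seed with miR-99b-5p, fell, while miR-99b-5p did not pass (log2 fold change -0.80, SE 0.50). miR-125b-5p fell from 672 RPM to 121, 145 and 64.4 RPM (log2 fold change -2.68, SE 0.51). miR-125a-5p fell from 428 RPM to 154.04, 93.2 and 55.1 RPM (log2 fold change -2.20, SE 0.55). miR-10b-5p was the member that rose. The list's median was -0.77, against -0.45 over all tested miRNAs, of which 18% were lower and 7.55% higher.

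In the miR-17-92 cluster and its paralogues, known for promoting proliferation, 3 of 11 tested names were lower and 1 was higher, where 18% and 7.55% of all tested were. The median log2 fold change was -1.18 against -0.45 over all tested miRNAs. miR-20a-5p fell from 803 RPM to 191.5, 265 and 79.4 RPM (log2 fold change -2.33, SE 0.71), and miR-25-3p fell from 490 RPM to 121, 208 and 76.6 RPM (-1.97, SE 0.54). The call of miR-20a-5p was lost without CR mitochondrial replicate 3 (adjusted p = 0.0556 by limma-trend). miR-17-5p and miR-92a-3p, with log2 fold changes of -1.46 (SE 0.55) and -1.62 (SE 0.71), did not pass, but did without AL mitochondrial replicate 1 (adjusted p = 0.0346 and 0.0300 by limma-trend) and with a filter at 50 RPM (0.0426 and 0.0494). miR-92a-3p also passed when only the 4 CR libraries were fitted (0.02996). miR-19b-3p, which comes from the same primary transcript as miR-20a-5p and from a second copy on chromosome X, moved the opposite way. Of the miR-181 family 1 of 5 was lower, miR-181a-5p, which fell by 1.60 on the log2 scale.

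The miRNAs that earlier work had named in mitochondria held 3 higher (miR-146a-5p, miR-378a-3p and miR-130a-5p), 0 lower and 12 that did not pass among 15 tested. The list named miRNAs without their arm, so both arms of each were counted. The call of miR-130a-5p was lost in 7 of 19 alternatives. That arm had 15 reads in the pool and passed the filter only through its mitochondrial level. The other arm, miR-130a-3p, did not pass (log2 fold change 0.91). The list's median log2 fold change was 0.50 against -0.45 over all tested miRNAs, of which 7.55% were higher and 18% lower. The list's summed level was 6231 RPM in the pool and 15745, 35302 and 27869.9 RPM in mitochondria, most of it miR-378a-3p. The members that did not pass included miR-34a-5p, a p53 target, at 20.7 RPM in the pool and 34.97, 38.03 and 27.1 RPM in mitochondria, and miR-155-5p, at 9.56 RPM in the pool and 3.33, 5.07 and 3.74 RPM in mitochondria.

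The 24 tested miRNAs of lipid and glucose metabolism held 3 higher and 1 lower, where 7.55% and 18% of all tested were. Their median was -0.47, close to that of all miRNAs. The higher ones were miR-29a-5p, miR-29c-3p and miR-378a-3p, and the lower one was miR-27b-3p. miR-22-3p, abundant in liver, was at 13062 RPM in the pool and at 28517, 16489 and 28483 RPM in mitochondria, above it in all 3 libraries, and did not pass (log2 fold change 0.86, SE 0.50). It passed without replicate 2 (adjusted p = 0.0253 by limma-trend) and with DESeq2 on recovered reads (0.0261). The 17 tested miRNAs of ageing and senescence held 2 higher (miR-146a-5p and miR-19b-3p) and 2 lower (miR-20a-5p and miR-181a-5p). Their median log2 fold change was -0.38, near the -0.45 of all tested miRNAs.

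Markers of cell types were read in the same way, since whole liver holds all of its cell types and in bulk RNA fewer cells of a type and less RNA per cell cannot be told apart. Hepatocyte markers dominated both fractions, with a summed level of 590774 RPM in the pool and 728938, 617246 and 752626 RPM in mitochondria. The higher sums of replicates 1 and 3 rest on miR-122, which took 26.3% of the reads in the pool and 53.3%, 25.2% and 58.1% in mitochondria. All 3 libraries lay above the pool for 4 of the 15 tested markers and below it for 10. Over all tested miRNAs these shares were 25.5% and 50.7%. Of 15 tested, 2 were higher (miR-193a-3p and miR-192-3p) and 3 were lower (miR-148a-5p, miR-365-3p and miR-194-2-3p). Their median log2 fold change was -0.54, against -0.45 over all tested miRNAs, of which 7.55% were higher and 18% lower. The call of miR-194-2-3p was lost without CR mitochondrial replicate 3 (adjusted p = 0.107 by limma-trend) and without AL mitochondrial replicate 2 (0.0728), and in 11 of 19 alternatives in all. Leukocyte and Kupffer cell markers summed to 892 RPM in the pool and to 3147, 4038 and 5184 RPM in mitochondria. miR-146a-5p, which made up most of that sum in mitochondria and 390 of the 892 RPM in the pool, was the 1 of 8 that passed. miR-142a-5p, a marker of blood cells, was at 205 RPM in the pool and 103.2, 76.1 and 74.7 RPM in mitochondria (log2 fold change -1.28). miR-223-3p and miR-155-5p were negative as well (-0.53 and -1.08). miR-142a-3p, miR-146b-5p, miR-150-5p and miR-342-3p were positive (0.27, 0.79, 0.67 and 0.36). The list's median was 0.31, against -0.45 over all tested miRNAs. The part that other cells play in the rise of miR-146a-5p was not tested.

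Markers of stellate cells, fibroblasts and smooth muscle held 3 lower of 9 tested (miR-199a-5p, miR-145a-5p and miR-145a-3p), with a median of -0.84. Over all tested miRNAs the median was -0.45, and 18% were lower and 7.55% higher. The call of miR-145a-5p was lost without CR mitochondrial replicate 3 (adjusted p = 0.0557 by limma-trend) and without AL mitochondrial replicate 3 (0.0513), and in 8 of 20 alternatives in all. The summed level of these markers was nevertheless higher, 15881 RPM in the pool against 25661, 44663 and 27163 RPM in mitochondria, because of miR-143-3p. That miRNA was at 13104 RPM in the pool and at 24373, 43460.3 and 26147 RPM in mitochondria and did not pass (log2 fold change 1.21, SE 0.53, adjusted p = 0.116 by limma-trend). It passed as higher in 6 of 20 alternatives: with TMM factors (0.0290), DESeq2 size factors (0.0271) or miR-122 left out (0.00695) before limma-trend, and with edgeR (0.0259), DESeq2 (0.00173) and limma-voom (0.0112) on recovered reads. Of 6 tested bile duct markers 1 was lower, miR-200b-3p, which fell from 179 RPM to 36.6, 57.0 and 21.5 RPM. No erythroid (5), endothelial (4), muscle (2), pancreas (2) or neuronal (1) marker passed, and the pancreas markers were raised in replicate 2 as given above. miR-1a-3p and miR-1b-5p had equal reads in every CR library. miR-126a-5p and miR-126b-3p were almost equal, as were miR-486a-3p and miR-486b-3p, so the muscle, endothelial and erythroid counts hold fewer separate measurements.

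The plain ratio of the 2 arms of a hairpin within a library does not depend on how libraries are scaled. The 1 RPM that the test added to each arm brings in some dependence for arms near 1 RPM, such as let-7g-3p in the pool. Of 64 hairpin names with both arms tested, 16 (25%) had a ratio that differed between CR mitochondria and the CR pool, 6 toward the 5p arm and 10 toward the 3p arm. The test was limma on the log2 ratio of the arms, with 1 RPM added to each, and the called log2 changes ranged in size from 1.94 to 6.44. In all 16, the 5p share of the 3 mitochondrial libraries lay on 1 side of the pool, as it did for 48 of all 64. For 10 of the 16, the arm that was the lesser in the pool gained share, compared with 39 of all 64. In 5 of the 16 (let-7g, miR-193a, miR-221, miR-335 and miR-872), and in 12 of all 64, 1 arm reached 5 RPM in 1 fraction only and passed the filter through that fraction. The changes of these hairpins are given as a description.

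The let-7g hairpin (chr9:106178840-106178927, plus strand, in an intron of Wdr82) was the 1 hairpin of the 16 whose arms both passed and in opposite directions. Its 5p arm fell and its 3p arm rose, so that the log2 ratio changed by -6.44 (SE 0.86). The 3p arm had only 2 reads in the pool, so the size of this change is poorly known. The 5p arm still made up 99.8%, 99.6% and 99.5% of the let-7g reads in mitochondria. In the miR-192 hairpin (chr19:6264844-6264932) the ratio changed by -4.17 (SE 0.58), through a rise of the lesser 3p arm, which was above 5 RPM in both fractions.

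In miR-193a the 5p arm made up 37.6% of the reads in the pool and 0.840%, 0.474% and 0.50% in mitochondria, a log2 change of -5.71 (SE 0.70). miR-193a-5p itself, at 9.87 RPM in the pool and 1.67, 0.634 and 0.934 RPM in mitochondria, did not pass alone, though it did in 3 of 18 alternatives. miR-106b, which shares an intron of Mcm7 with its cluster, went the other way. Its 5p share was 59.2% in the pool and 94.1%, 95.6% and 97.5% in mitochondria, with the 3p arm lower (log2 fold change -2.54, SE 0.69) and the 5p arm above the pool in all 3 libraries without passing (1.31, SE 0.63). That arm passed in 5 of 20 alternatives: without replicate 1 (adjusted p = 0.0252) or with miR-122 left out (0.0379) in limma-trend, and with edgeR (0.0356), DESeq2 (0.0101) and limma-voom (0.0327) on recovered reads.

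The leading arm was the other one in all 3 mitochondrial libraries for 3 of the 16 hairpins, miR-361, miR-151 and miR-674, and for no other of the 64. The 5p share of miR-361 was 9.61% in the pool and 81.5%, 53.4% and 53.8% in mitochondria, through the fall of the 3p arm. miR-361-5p was at 31.5 RPM in the pool and 36.6, 24.7 and 19.6 RPM in mitochondria. The 5p share of miR-151 was 37.4% in the pool and 71.6%, 66.1% and 77.6% in mitochondria (log2 change 2.08, SE 0.58), and this call was lost without CR mitochondrial replicate 3 (adjusted p = 0.0740 by limma). The 5p share of miR-674 was 24.6% in the pool and 66.7%, 54.9% and 77.8% in mitochondria (log2 change 2.46, SE 0.74). Its call was lost without CR mitochondrial replicate 3 (0.0617) or AL mitochondrial replicate 3 (0.0541). The 5p share of miR-872 was 90.1% in the pool and 30.4%, 54.5% and 35.7% in mitochondria, with the 3p arm at 13.0 RPM in the pool and 13.3, 3.17 and 8.41 RPM in mitochondria. Its 5p arm thus still led in replicate 2, and the low reads of miR-872 in mitochondria make its shares imprecise. In miR-221 the 5p arm was 18.5% of the reads in the pool and 0.267%, 1.85% and 1.06% in mitochondria, while miR-221-3p overlapped the pool at 322.9 RPM against 311, 236 and 349 RPM. The 5p arm of miR-29a rose from 0.117% to 0.975%, 3.48% and 2.53%.

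**Figure D4:**
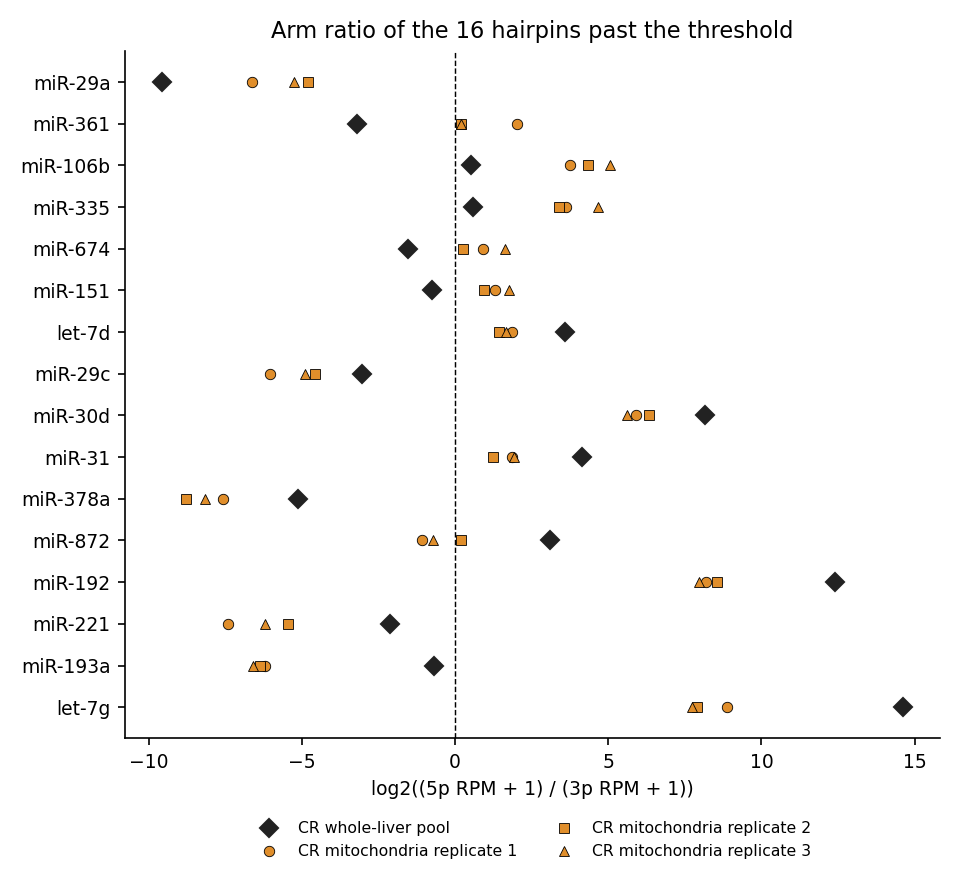
Log2 ratio of the 5p to the 3p arm (1 RPM added to each) for the 16 hairpins that passed, in the CR pool (diamonds) and in the 3 CR mitochondrial libraries (other symbols), ordered by the fitted change. Values right of 0 mean more 5p than 3p; the mitochondrial libraries lie right of the pool for 6 hairpins and left of it for 10.

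The same comparison in AL mice took its fold changes from other libraries and gave 58 calls among the 278 miRNAs (20.9%). The CR and AL tests came from the same fit over all 8 libraries, so they share 1 estimate of spread per miRNA or arm ratio. The tested names were also chosen by their CR levels. Passing under AL is therefore not independent of passing under CR, whereas the directions rest on separate libraries. Of the 71 CR calls, 70 had the same direction under AL, and 17 of the 21 higher and 27 of the 50 lower passed there too, where 7.91% of all tested were higher and 12.9% lower. All 3 AL mitochondrial libraries lay above the AL pool for 20 of the 21 and below it for all 50. Over all tested miRNAs, all 3 AL libraries were above the AL pool for 29.9% and below it for 52.2%. For the arm ratios, all 16 had the same direction under AL and 14 passed. Across the 278 miRNAs, which are not independent replicates, the CR and AL log2 fold changes had Pearson's r of 0.88 and Spearman's rho of 0.86, and 238 had the same sign. The miRNAs share the 1 pool of each diet, so error in a pool enters many of them.

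The difference between the CR and AL fraction changes was tested itself, and no miRNA passed (limma-trend, smallest adjusted p = 0.995, 3 miRNAs at an unadjusted p under 0.05). edgeR, DESeq2 and limma-voom on recovered reads called 0 as well, with 9, 8 and 7 at an unadjusted p under 0.05. A p that misses the threshold does not show that the diets act alike. The exception in direction was miR-881-3p, at 2.78 RPM in the CR pool and 11.7, 49.4 and 15.9 RPM in CR mitochondria, but at 20.97 RPM in the AL pool and 21.2, 20.1 and 19.7 RPM in AL mitochondria. The AL level was even across the fractions, and the low value was that of the CR pool. The difference was 2.59 on the log2 scale (SE 1.01, adjusted p = 0.995 by limma-trend). miR-199a-3p was below the CR pool (1089 RPM against 689.4, 574 and 543.5 RPM) and above the AL pool (1288 RPM against 2234, 1532 and 1900 RPM), a difference of -1.40 (SE 0.62). miR-150-5p, miR-5126 and miR-7a-5p followed, with differences of 2.14, 2.29 and -1.43.

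**Figure D5:**
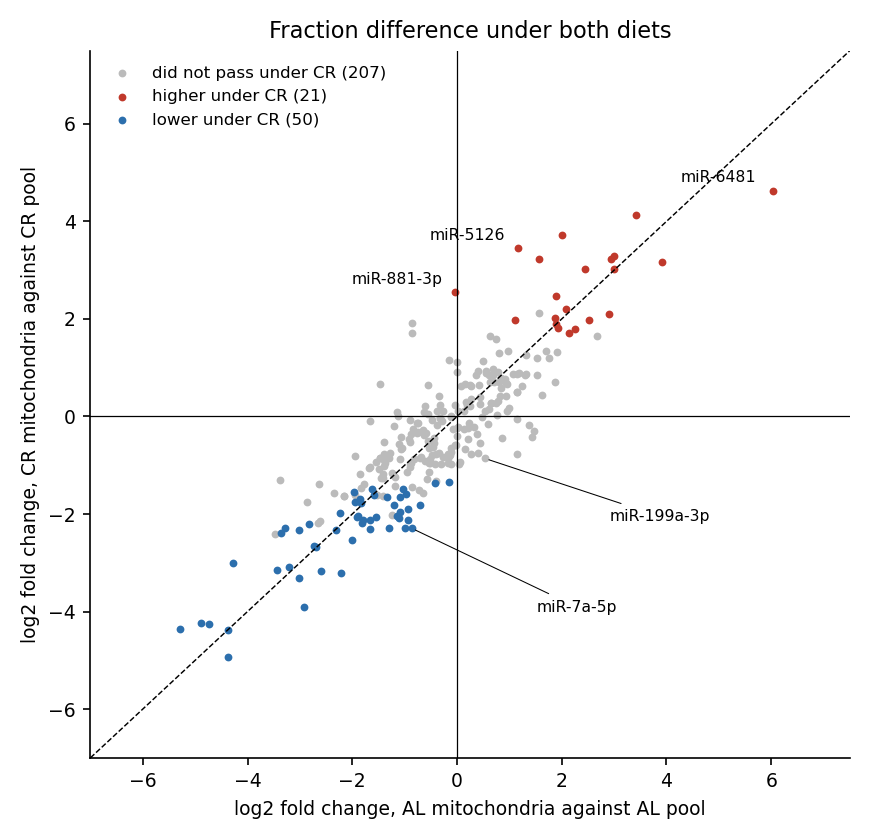
Log2 fold change of mitochondria against whole liver under AL (x axis) and CR (y axis) for the 278 tested miRNAs, each from its own 4 libraries; the dashed line marks equal changes. Of the 71 coloured CR calls 70 have the same sign under AL, and miR-881-3p lies near 0 under AL.

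Sequence features that the choice of libraries did not use were compared by description. The unannotated candidates were left out. The median GC content was 45.5% over the 274 annotated names tested, 50% for the 20 higher and 45.5% for the 49 lower. The first base was U in 46.0% of all, in 5 of the 20 higher (25%) and in 27 of the 49 lower (55.1%). Across the 274 names the log2 fold change had Pearson's r of 0.08 with GC content and -0.12 with length. Of the 20 higher names 9 were 3p arms and 5 were 5p arms, and of the 49 lower names 20 were 3p and 28 were 5p arms, compared with 135 5p arms and 17 names without an arm among all 274, the others being 3p arms.

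At the low end, 499 of the 743 names were listed in both fractions, 105 only in the pool and 139 only in mitochondria. Pool-only names had at most 12 reads (miR-301a-5p) and mitochondria-only names at most 19 over the 3 libraries (miR-470-5p). A floor of 3 reads is 0.925 RPM in the pool and 0.779 RPM over the 3 mitochondrial libraries together. The observed level of miR-301a-5p in the pool was 4.75 times the mitochondrial floor, and that of miR-470-5p in mitochondria was 5.33 times the floor of the pool. The counting error of their own 12 and 19 reads is left out of these ratios, so they are not lower bounds. Of the one-sided names, 91 of 105 and 119 of 139 had 3 or fewer reads, for which presence in 1 fraction was not detectable as a difference at this depth. Intervals and floors cover counting error only.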

How the data were processed

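The authors deposited, per library, a table of miRNA names with RPM, the reads scaled to a total of 1000000 over the listed names, per the file headers and column sums (the headers say tpm). Reads were mapped with Bowtie to mm9, per the submitters' processing notes. The aligner's version, the naming of reads, the treatment of multiple hits and the use of strand are not given in the sources used here. A missing name counts as 0. Reads were recovered by division (100% of values were whole within 0.01 read).

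limma 3.58.1 (limma-trend, R 4.3.3) was run on log2(RPM + 1) over all 8 libraries with 1 mean for each of 4 groups, on names with at least 5 RPM as the mean of the 2 fraction levels, with p-values adjusted by Benjamini-Hochberg and called under 0.05. Arm ratios used limma on both arms at 5 RPM or more. The script was checked on simulated data. edgeR 4.0.16, DESeq2 1.42.0 and limma-voom on the recovered reads, other scalings, filters and pseudocounts, and leaving out each mitochondrial library were alternatives. Python 3.11.15, scipy 1.17.1 and matplotlib 3.10.9 were used.

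Named miRNAs were the 10 largest changes in each direction, the 10 largest at 1000 RPM or more, the 5 most abundant of each fraction, the 5 smallest p between diets, 8 hairpins by arm ratio, up to 4 members of each list and the most abundant names of 1 fraction only; others were added after their values were seen. The members and lists were chosen with earlier results of these data known. Sequences and coordinates are from RefSeq (GRCm38.p6) and host genes and hairpins from GENCODE M21 (GRCm38), not from the mm9 alignment; 600 of the 743 names matched RefSeq.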

Additional observations from a re-analysis of the deposited data

How the results depend on the processing

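No paired analysis was possible because each whole-liver pool is 1 library with no replicate number. Of the 71 calls against the CR pool, between 53 and 79 calls were made when 1 mitochondrial library was left out, and between 58 and 79 under other scalings, pseudocounts and tools. Without a filter there were 120 calls over 743 names (18 higher and 102 lower, 32 of them shared with the 71), and with a filter at 50 RPM there were 47 over 131 names. The difference between the diets gave 0 calls under every alternative except without a filter, where 75 of 743 names passed; the cause was not tested. The arm ratio gave 16 calls, 11 to 16 when 1 library was left out, and 5 of 19 hairpins with a filter at 50 RPM. The mean miR-122 share in CR mitochondria lay between 39.3% and 55.7% when 1 CR mitochondrial library was left out. Among the miRNAs followed by name through the alternatives, 3 that did not pass and lay near 0 changed sign, from negative to positive. Other tested miRNAs near 0 are not counted here. Under TMM scaling, DESeq2 size factors and scaling without miR-122, the log2 fold change was 0.30, 0.33 and 0.47 for miR-30a-5p, 0.18, 0.22 and 0.35 for miR-221-3p, and 0.042, 0.077 and 0.21 for miR-361-5p. Under edgeR, DESeq2 and limma-voom it was 0.47, 0.51 and 0.39 for miR-30a-5p, 0.35, 0.36 and 0.26 for miR-221-3p, and 0.20, 0.21 and 0.13 for miR-361-5p. Upper quartile scaling gave 0.15 for miR-30a-5p and 0.030 for miR-221-3p. Leaving out 1 library gave -0.48 to 0.27 for miR-30a-5p and -0.25 to 0.030 for miR-221-3p. Of 57 called miRNAs named in the text, 24 kept their call under all alternatives that tested them, and none changed sign. Rare names limit precision: a single read was worth 0.308 RPM in the pool and 0.634 to 0.934 RPM in CR mitochondria.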
